A study of Mus musculus with 12 samples.

Results

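Genes that license, fire and copy replication origins in S phase were measured in sorted mouse epidermal cells. The set holds 39 genes of the 18193 genes on the array, chosen by gene symbol in the platform annotation. The choice was made with earlier results of these data known. It covers origin licensing (10 genes), helicase activation (4), polymerases and primase (5), the sliding clamp, its loader and lagging-strand enzymes (8), nucleotide supply (5), G1/S cyclins (2), chromatin and histone supply (3) and the fork checkpoint (2). Each gene was read by 1 probe set, the brightest of those that match no other gene.

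The skin cells came from mice with 4 transgenes. K5-tTA drives pTRE-H2B-GFP, while K14-CreER acts on a Rosa-tdTomato reporter. In this system keratin 5 cells make a fluorescent histone until doxycycline stops it, after which each division dilutes the label, and tamoxifen switches on tdTomato in keratin 14 cells. All animals received doxycycline in food at 1 g/kg for 2 weeks and 75 mg/kg tamoxifen once, and were killed 1 week after it at second telogen, so that treatment was shared by every group. The 12 arrays comprise 2 GL, 2 SL LRC, 2 SL non-LRC, 3 BL LRC and 3 BL non-LRC samples. GL, SL and BL are read here as granular, spinous and basal layer, and LRC as label-retaining cell, from knowledge of the study. The sorting gates, the age and sex of the mice and whether the samples came from separate animals are not given in the labels, so p-values measure the spread between these samples, which may be technical. In a bulk sample, fewer cells in S phase and less RNA per cell cannot be told apart.

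Before S phase, the origin recognition complex, Cdc6 and Cdt1 load the ring-shaped Mcm2 to Mcm7 complex onto origins. Cdc45, the GINS complex and Mcm10 then turn that ring into a running helicase, and polymerases copy behind it on a sliding clamp, Pcna. Many of these genes are targets of E2F transcription factors, which are released in late G1, and in epidermis division is largely a property of the basal layer and the hair follicle.

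The labelled layers were checked against their markers. Flg, the granular filaggrin gene, was at 517 and 271 intensity units in GL, 87.5 and 125 in SL LRCs and 23.6 and 46.7 in SL non-LRCs, and it was never above background in BL. Itga6, a basal integrin, ran the other way, at 3154 and 3044 units in GL against 9255 to 12233 units on the 6 BL arrays. Basal keratins were bright in every group, with Krt5 at 22513 and 20559 units in GL. Over whole lists, the 9 granular markers summed to 20798 to 32812 units in GL, against 12330 to 13244 in SL LRCs, 11611 to 18018 in SL non-LRCs, 6576 to 8230 in BL LRCs and 5045 to 6745 in BL non-LRCs. Single markers went against the labels. Tgm3, a granular transglutaminase, was at 354 and 365 units in GL against 1566 to 4445 on the BL arrays, and Casp14, a caspase of cornification, was lower in GL (3063 and 4325 units) than in SL LRCs (5863 and 7047). Cdh3, a basal cadherin, was at 1407 and 1187 units in GL against 384 and 383 in SL LRCs. The 7 spinous markers summed to 156041 to 168335 units in SL LRCs and 96040 to 110199 in SL non-LRCs, against 110698 to 132937 in BL LRCs and 74281 to 97175 in BL non-LRCs, so that SL non-LRCs lay below BL LRCs. GL also carried other cell types: its 3 measured T cell markers summed to 5953 to 17866 units, against at most 995 on any other array, and its 5 Langerhans and myeloid markers to 22326 to 46088 units, against at most 6639 units. Their part in the GL results was not tested.

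The arrays also fall into 2 sets by the bacterial control BioB. BioB was at 467 to 524 units on BL LRC 1, BL non-LRC 1 and both SL non-LRC arrays, and at 2885 to 3931 units on the other 8. Within SL the array set and the label coincide and cannot be told apart. Between 68.1% and 78.4% of genes lay above the background of their array, which was 22.4 to 42.6 units. The number of arrays limits the precision of every difference below.

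The genes of this set were brightest in the basal layer, in label-retaining and non-retaining cells alike, and mostly dimmer than there in SL and in GL. Between SL LRCs and GL the step was small, with a lower mean in GL for 30 of 39 members. Every member had a lower mean in GL than in both BL groups, and 38 of 39 had a lower mean in SL LRCs than in both BL groups. SL non-LRCs lay in between: for 32 of 39 members their mean fell between the SL LRC mean and both BL means. The lowest of the 5 group means was in GL for 28 members, in SL LRCs for 9 and in SL non-LRCs for 2, and the highest was always in BL, in LRCs for 24 members and in non-LRCs for 15.

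**Figure D1:**
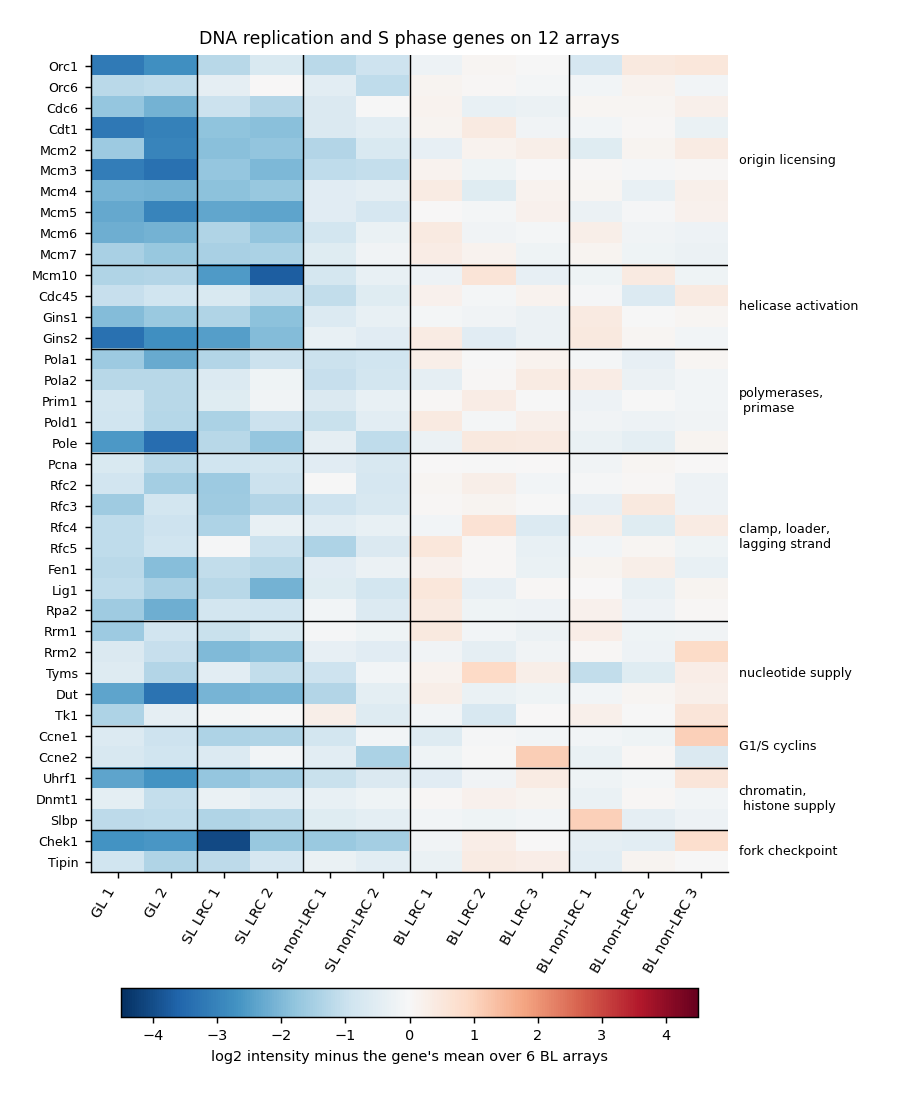
Heat map of the 39 genes (rows, by role) on 12 arrays (columns). Colour is the log2 intensity minus the mean of the gene over the 6 BL arrays. GL and SL LRC columns are blue in most rows, SL non-LRC columns are paler and BL columns are near white.

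Summed up per array, the median member lay 1.37 and 1.47 log2 units below its BL mean in GL 1 and GL 2. In SL LRCs the median was 1.34 and 1.26 units below, and in SL non-LRCs 0.63 and 0.51 units below. On the 6 BL arrays it stayed between -0.11 and 0.06. The 29 mitosis genes, measured for comparison, had medians of -1.13 and -1.61 in GL and of -1.08 and -1.65 in SL LRCs, but of 0.21 and 0.34 in SL non-LRCs. In BL the mitosis medians were -0.43 to -0.35 in LRCs and 0.30 to 0.79 in non-LRCs, so that they separated the label groups where the replication genes did not.

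**Figure D2:**
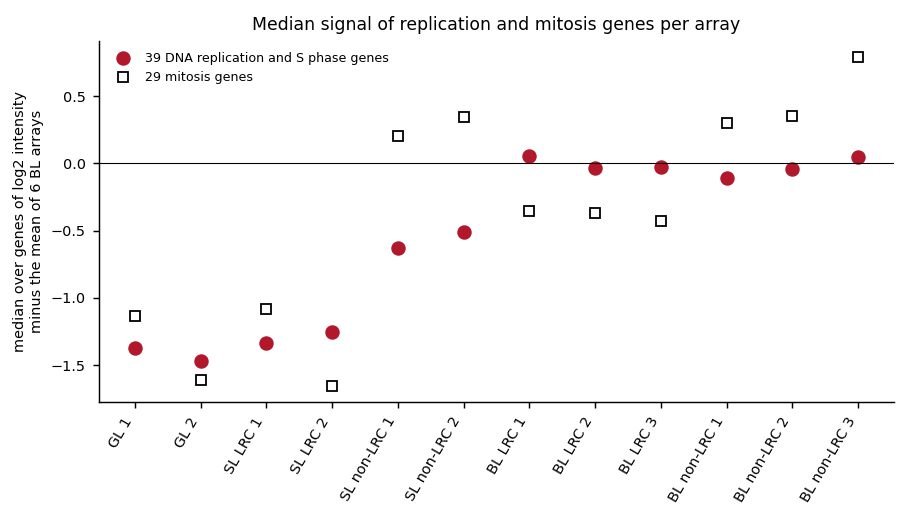
Median over genes of log2 intensity minus the BL mean, per array, for the 39 replication genes (filled circles) and the 29 mitosis genes (open squares). In SL non-LRCs the replication median is at -0.63 and -0.51 while the mitosis median is at 0.21 and 0.34.

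Promoter sequences are shown for the members with the smallest p-values between SL and BL, since E2F proteins bind near the start of many of these genes. RefSeq promoter windows, 250 bases before to 50 after the start (GRCm38.p6), were found for 32 of 39 members, in 39 windows. The letters TTGGCGC, or TTCCCGC, or TTCGCGC on either strand, which are forms of the E2F motif, occurred in 22 of these 39 windows (56.4%), and in 8.07% of all 32851 windows. Counted by gene, 19 of the 32 members held a match. At least 2 matches occurred in 23.1% of member windows and in 0.871% of all windows. The CCAAT box, which binds NF-Y, occurred in 56.4% of member windows and in 37.4% of all windows. Matches can overlap, since a palindromic stretch is read on both strands and GCGCCAAT holds a CCAAT box. A match is a description of letters and not a measured site.

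The stretches below are parts of these windows, with E2F letters in capitals.
Mcm3: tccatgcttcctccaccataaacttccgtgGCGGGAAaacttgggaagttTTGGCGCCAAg
Mcm5: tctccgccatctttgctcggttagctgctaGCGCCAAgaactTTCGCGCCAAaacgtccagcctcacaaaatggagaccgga
Cdt1: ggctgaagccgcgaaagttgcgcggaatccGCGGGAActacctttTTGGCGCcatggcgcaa
Mcm6: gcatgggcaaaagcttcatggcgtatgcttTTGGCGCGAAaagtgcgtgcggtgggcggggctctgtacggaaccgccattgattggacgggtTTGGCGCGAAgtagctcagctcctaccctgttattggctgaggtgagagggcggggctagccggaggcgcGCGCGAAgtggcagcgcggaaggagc
Dut: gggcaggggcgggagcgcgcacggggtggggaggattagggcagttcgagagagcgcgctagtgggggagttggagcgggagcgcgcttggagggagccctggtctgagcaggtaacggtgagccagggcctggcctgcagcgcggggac

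The Mcm3 stretch is chr1:20820263-20820323 on the minus strand and spans the gene start, with 3 matches. That of Mcm5 is chr8:75109315-75109396 on the plus strand, upstream of the start, also with 3 matches. That of Cdt1 is chr8:122568003-122568064 on the plus strand, with 2 matches, and that of Mcm6 is chr1:128359656-128359844 on the minus strand, with 5. Dut, whose signal differed between layers by about as much as that of Mcm3, held none of these letters in its window, of which chr2:125247415-125247564 on the plus strand is shown. Some members not shown differed more between SL and BL than Mcm6. Of these, Mcm10, Mcm2 and Rrm2 held no match, and Chek1, Uhrf1, Lig1 and Rfc3 held 1 or 2.

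Between SL and BL, 23 of 39 members fell and none rose in limma's moderated test over all genes (adjusted p under 0.05). The comparison sets the mean of both SL groups against the mean of both BL groups. The percentage of all genes called lower was 2.2%, the member median was -0.93 against 0.002 for all genes, and all 39 members had a negative difference. The 2 layers did not overlap at all for 15 members, against a background of 2%. Set out by label, SL LRCs against BL LRCs gave 23 lower (background 1.41%, median -1.26), and SL non-LRCs against BL non-LRCs gave 1, Mcm3 (background 0.39%, median -0.58). Within LRCs 33 members did not overlap (background 15.5%), and within non-LRCs 25 did not (background 12.2%). These comparisons share no arrays.

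Within the high-BioB arrays, where SL LRCs meet BL LRCs, 19 members were lower. Within the low-BioB arrays, where 2 SL non-LRC arrays meet BL non-LRC 1 alone, only Slbp was, with a median of -0.50. Without SL LRC 1 or without SL LRC 2, the LRC comparison gave 12 lower members instead of 23, and without SL non-LRC 1 the non-LRC comparison gave 0. The difference between the LRC and non-LRC changes is the label interaction described further on, which called no member.

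**Figure D3:**
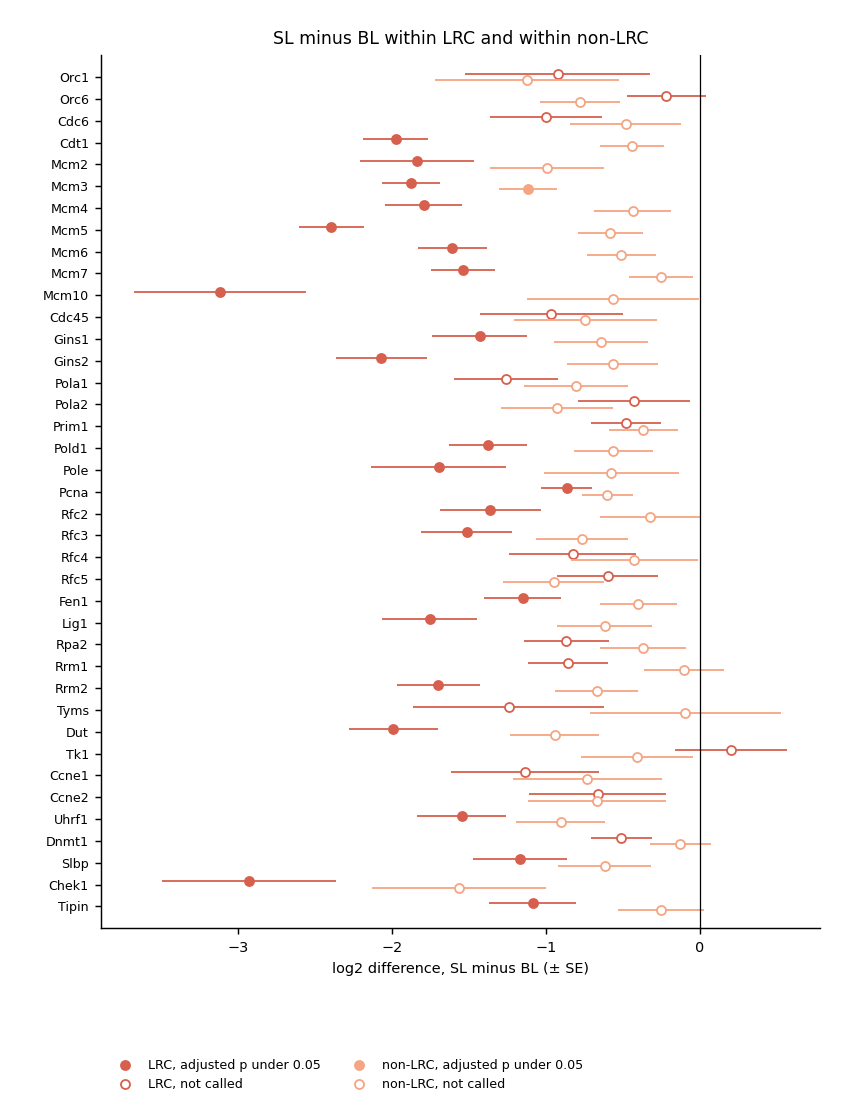
Log2 difference SL minus BL of each member (± SE) within LRCs and within non-LRCs. Filled points have an adjusted p under 0.05: 23 within LRCs and 1, Mcm3, within non-LRCs.

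Origin licensing held the members with the smallest p-values. Mcm3, a subunit of the helicase ring, was at 374 and 313 units in GL, 964 and 786 in SL LRCs, 1466 and 1519.7 in SL non-LRCs, 3580.0, 2792 and 3282 in BL LRCs and 3298, 3067 and 3333 in BL non-LRCs. No values overlapped between layers, and SL non-LRCs lay between SL LRCs and BL. Mcm3 fell in SL against BL by 1.50 ± 0.13 log2 units (SE, n = 4 and 6 arrays, adjusted p = 4.66e-06), within LRCs by 1.88 ± 0.19 (adjusted p = 6.92e-05) and within non-LRCs by 1.11 ± 0.19 (adjusted p = 0.0046, and 0.0762 without SL non-LRC 1). With all its probe sets averaged or within the low-BioB arrays the non-LRC call was lost.

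Mcm5, another ring subunit, was at 833 and 521 units in GL, 816 and 797 in SL LRCs, 2938 and 2478 in SL non-LRCs, 4187, 3854 and 4711 in BL LRCs and 3427, 4013 and 4785 in BL non-LRCs. SL LRC values lay within the GL range, and SL non-LRC values lay below every BL value but nearer to BL. Mcm5 fell by 2.39 ± 0.21 within LRCs (adjusted p = 3.49e-05), while within non-LRCs the difference was -0.58 ± 0.21 (adjusted p = 0.246). The size of the non-LRC difference varied with the probe set. A further Mcm5 probe set above background on every array gave -2.08 within LRCs and -1.23 within non-LRCs. Another, above background on 10 arrays, gave -1.06 and 0.25. Cdt1, the loader of the ring, was at 275 and 310.2 units in GL, 722 and 682 in SL LRCs, 1600.2 and 1815 in SL non-LRCs, 2744, 3379 and 2269 in BL LRCs and 2301, 2624 and 2059 in BL non-LRCs. GL values lay lowest, then SL LRCs, SL non-LRCs and BL, without overlap between these 4 levels. In SL against BL Cdt1 fell by 1.21 ± 0.15 (adjusted p = 9.82e-05), and within LRCs it fell by 1.98 ± 0.21 (adjusted p = 0.00012). With its probe sets averaged both calls were lost, at -0.62 (adjusted p = 0.326) and -1.17 (adjusted p = 0.217). That mean takes in a Cdt1 probe set above background on no array, at 0.71 and 0.62. Another, above background on every array, gave -1.36 and -2.15.

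Of the other 4 ring subunits, Mcm6 was at 2007 and 1482 units in SL LRCs and 2881 and 4101 in SL non-LRCs, against 6682, 4509 and 4808 in BL LRCs and 6075, 4491 and 4292 in BL non-LRCs. It fell in SL against BL by 1.06 ± 0.16 (adjusted p = 0.000505), which became -0.63 (adjusted p = 0.29) with its probe sets averaged. That mean takes in a probe set above background on 5 arrays, at 0.24. Another, above background on every array, gave -1.06. Mcm2 fell by 1.41 ± 0.26, Mcm4 by 1.12 ± 0.18 and Mcm7 by 0.90 ± 0.15 (adjusted p = 0.0033, 0.000936 and 0.00117 in that order), so that all 6 subunits were lower. Within the low-BioB arrays none of the 6 passed, the smallest adjusted p being 0.0515 for Mcm3. Orc1, Orc6 and Cdc6, which act before the ring is loaded, did not pass between SL and BL (lowest adjusted p 0.126, for Cdc6).

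Helicase activation genes gave 3 of 4 lower. Gins2, a subunit of the GINS complex, was at 146 and 222 units in GL, 273 and 389 in SL LRCs, 1189 and 1056 in SL non-LRCs, 1933, 1045 and 1264 in BL LRCs and 2044, 1606 and 1388 in BL non-LRCs. SL LRC values lay below every BL value, while SL non-LRC values lay within the BL LRC range. Gins2 fell in SL against BL by 1.32 ± 0.21 (adjusted p = 0.0009). Mcm10, which helps the helicase start, was above background on neither SL LRC array, at 27.5 and 12.4 units, against 138, 239 and 125 in BL LRCs. It was at least 4.29-fold lower there (adjusted p = 0.00498, and 0.0771 without SL LRC 2), a bound taken against the dimmest genes above background. Of its other probe sets, 1 differed by 0.21 the other way between SL and BL, and with all averaged neither the LRC call nor that between SL and BL held (adjusted p = 0.0856 and 0.173). Gins1 fell by 1.04 ± 0.22 in SL against BL (adjusted p = 0.243 with its probe sets averaged), and Cdc45 differed by -0.85 ± 0.33 (adjusted p = 0.182).

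**Figure D4:**
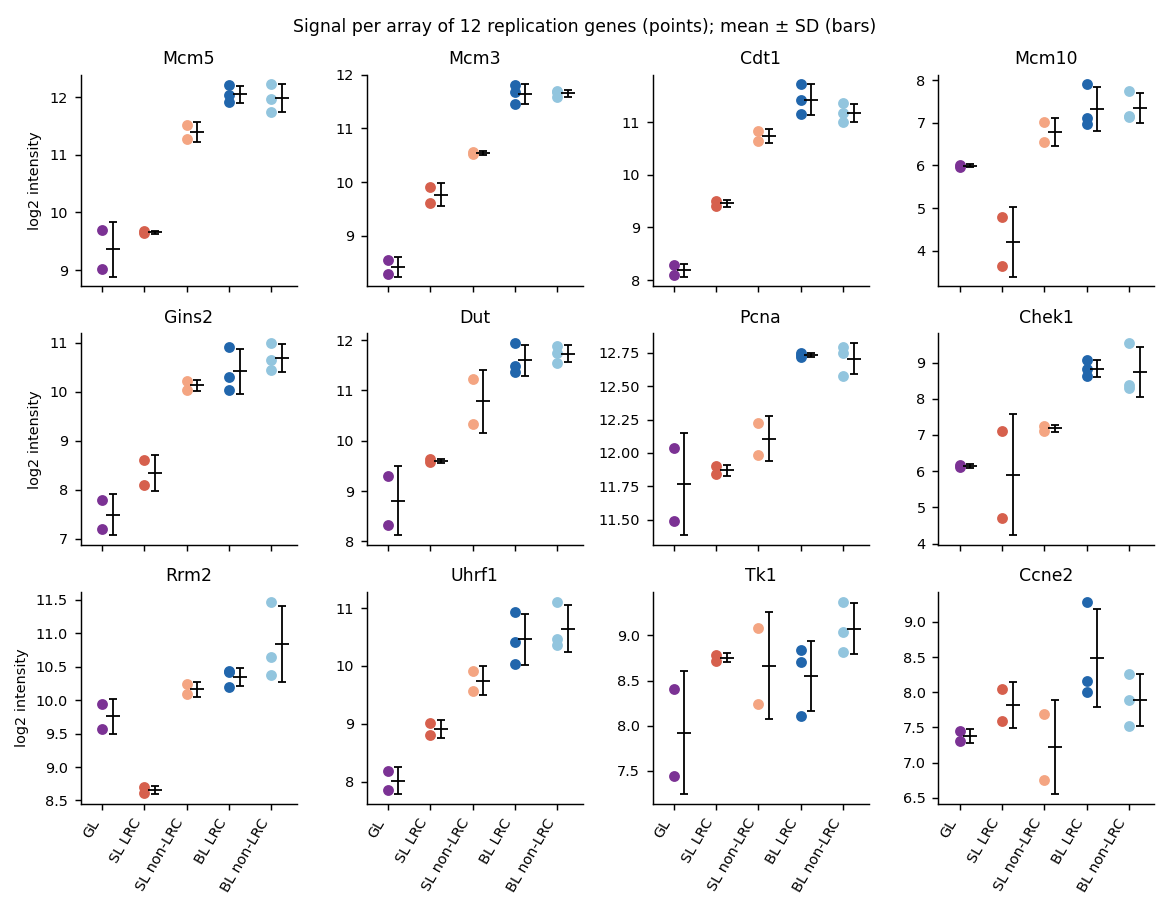
Log2 intensity of 12 members per array (points) with the group mean ± SD (bars), n = 2 arrays for GL and each SL group and 3 for each BL group. Each panel has its own axis. Mcm5, Mcm10, Gins2 and Rrm2 have low SL LRC points while the SL non-LRC points lie nearer to BL.

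Polymerases and primase gave 3 of 5 lower between SL and BL. Pold1, the catalytic subunit of the lagging-strand polymerase, was at 397 and 551 units in SL LRCs and 531 and 762 in SL non-LRCs, against 1402, 1014 and 1252 in BL LRCs and 966, 904 and 949 in BL non-LRCs. All 4 SL arrays lay below all 6 BL arrays, and Pold1 fell by 0.97 ± 0.18 (adjusted p = 0.00335). Pola1 (alpha, catalytic) fell by 1.03 ± 0.24 (adjusted p = 0.0166, and 0.0774 without SL LRC 1, 0.0701 without SL non-LRC 1, 0.174 within the high-BioB arrays and 0.25 with its probe sets averaged). Pole (epsilon, the leading-strand polymerase) fell by 1.14 ± 0.31 (adjusted p = 0.0433), which did not pass in 9 of the 12 fits on 11 arrays (adjusted p of 0.0604 to 0.184). The Pole call was also lost with the replicate block (adjusted p = 0.115), with the array set term (adjusted p = 0.0613), within the high-BioB arrays (adjusted p = 0.067) and with median centring or quantile normalisation (adjusted p = 0.0502 and 0.052). Pola2 and Prim1 did not pass (adjusted p = 0.173 and 0.171), although Prim1 passed with its probe sets averaged, at -0.65 (adjusted p = 0.00769).

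The clamp, its loader and the lagging-strand enzymes gave 5 of 8 lower. Pcna, the clamp, was at 4195 and 2886 units in GL, 3663 and 3822 in SL LRCs, 4784 and 4056 in SL non-LRCs, 6892, 6735 and 6795 in BL LRCs and 6094, 7099 and 6891 in BL non-LRCs. The spread within BL was small, and every SL value lay below every BL value. Pcna fell by 0.73 ± 0.12 (adjusted p = 0.001), and by 0.86 ± 0.17 within LRCs (adjusted p = 0.00844), where the adjusted p was 0.0975 without SL LRC 1 and 0.0692 without SL LRC 2. Within non-LRCs the difference was -0.60 ± 0.17 (adjusted p = 0.0946). Lig1, the ligase that joins Okazaki fragments, fell by 1.19 ± 0.22 in SL against BL (adjusted p = 0.00297). Rfc3, a clamp loader subunit, fell by 1.14 ± 0.21 (adjusted p = 0.00315). Fen1, the flap nuclease, and Rfc2 also passed, and Rfc4, Rfc5 and Rpa2 did not.

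Nucleotide supply was divided, with Dut and Rrm2 lower and Rrm1, Tyms and Tk1 not called. Dut, which clears dUTP, was at 631 and 320.1 units in GL, 764 and 795 in SL LRCs, 1296 and 2401 in SL non-LRCs, 3937, 2636 and 2867 in BL LRCs and 2998, 3421 and 3796 in BL non-LRCs. The SL non-LRC arrays were far apart, and no SL value reached the BL range. Dut fell by 1.47 ± 0.20 (adjusted p = 0.000308). Rrm2, the S phase subunit of ribonucleotide reductase, fell by 1.18 ± 0.19 (adjusted p = 0.00107). Tk1, the salvage thymidine kinase, was at 420.2 and 442 units in SL LRCs and 544 and 303 in SL non-LRCs, against 416, 276 and 458 in BL LRCs and 527, 449 and 663 in BL non-LRCs. Those groups overlapped, and the difference of -0.10 ± 0.26 (adjusted p = 0.912) changed sign to 0.28 within the high-BioB arrays, to 0.04 with the replicate block and to 0.11 without SL non-LRC 2.

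The G1/S cyclins, which drive entry into S phase, had no call between SL and BL, at -0.93 ± 0.34 for Ccne1 and -0.67 ± 0.32 for Ccne2. With its probe sets averaged Ccne1 was called lower, at -2.06 (adjusted p = 0.0381). Its other probe set, above background on 9 arrays, was at -3.18. Uhrf1, which guides maintenance methylation at the fork, was at 290.1 and 231 units in GL, 447 and 519 in SL LRCs, 757 and 967 in SL non-LRCs, 1050.0, 1361 and 1946 in BL LRCs and 1310.4, 1421 and 2206 in BL non-LRCs. All 4 SL values were below all BL values, and Uhrf1 fell by 1.23 ± 0.20 (adjusted p = 0.00136). Dnmt1, the maintenance methyltransferase itself, differed by -0.32 ± 0.14 (adjusted p = 0.267), a sign that turned to 0.05 within the low-BioB arrays. Slbp, which binds the stem-loop of histone mRNAs, fell by 0.89 ± 0.21 (adjusted p = 0.0203), a call lost without any of the 4 SL arrays (adjusted p of 0.0594 to 0.092) and with its probe sets averaged (adjusted p = 0.099). Slbp read 5649, 2016 and 2307 units on BL non-LRC 1, 2 and 3, and the first of these stood far above every other array. BL non-LRC 1 is also the lone BL array set against SL non-LRCs within the low-BioB arrays. The Slbp difference there (-1.55) rests on that value.

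Chek1, the checkpoint kinase that restrains origin firing, was at 69.1 and 72.5 units in GL, 26.3 and 137 in SL LRCs, 137 and 153 in SL non-LRCs, 392, 539.7 and 449 in BL LRCs and 334, 317 and 744 in BL non-LRCs. The SL LRC 1 value lay below background, and all SL values lay below all BL values. Chek1 fell in SL against BL by 2.25 ± 0.40 (adjusted p = 0.00245). Within LRCs it fell by 2.93 ± 0.57 (adjusted p = 0.0088), and without SL LRC 1 the difference was -1.74 (adjusted p = 0.164). With its probe sets averaged neither Chek1 call held, at -1.15 between SL and BL (adjusted p = 0.198) and -1.72 within LRCs (adjusted p = 0.226). That mean takes in a probe set above background on no array, at 1.01 between SL and BL and 0.46 within LRCs. Its other probe sets, above background on 9 to 11 arrays, gave -1.07, -1.15 and -2.28 between SL and BL. Tipin, a fork protection factor, passed within LRCs (adjusted p = 0.0484, and 0.0761 with the replicate block) and not between SL and BL (adjusted p = 0.0654).

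In the basal layer 0 of 39 members were called in limma's test of BL LRCs against BL non-LRCs, at 3 arrays each. Only 1.53% of all genes were called in either direction, so a count of 0 does not set the members apart. An unadjusted p under 0.05 was reached by 0 members and by 2026 of 18193 genes. The member median was 0.03 against 0.05 for all genes, and 15 members lay below 0. The member with the smallest p was Rrm2, at -0.48 ± 0.24 (adjusted p = 0.486). Among the widest differences, Tyms, the thymidylate synthase, was at 107, 178 and 113 units in BL LRCs and 44.2, 65.9 and 118 in BL non-LRCs. The groups overlapped, with a difference of 0.88 ± 0.56 (adjusted p = 0.61). In the same comparison 3 of 29 mitosis genes were lower, with a median of -0.91, and Mki67, the proliferation antigen, differed by -0.84 ± 0.21 (adjusted p = 0.0559).

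In the spinous layer 10 of 39 members were lower in LRCs than in non-LRCs and 0 were higher. The background was 2.7% of all genes called lower, and the member median was -0.78 against -0.001 for all genes. The groups did not overlap, with LRCs lower, for 26 members, against 24.2% of all genes. Called members comprised 6 licensing genes (Cdt1 and 5 ring subunits), Mcm10 and Gins2, and Dut and Rrm2. No polymerase, clamp, cyclin, chromatin or checkpoint member was called. With a term for the array set, which overlaps with the label in SL, Cdt1 and Mcm5 passed and 8 did not. Only BL holds both array sets within a group, so the size of that term came from the BL arrays and was carried over to SL. It cannot separate label from array set within SL. Among the 8, the differences with that term were -1.59 ± 0.39 for Rrm2, -2.88 ± 0.82 for Mcm10, whose SL LRC values are below background, -1.05 ± 0.42 for Dut, -1.01 ± 0.34 for Mcm4, -0.75 ± 0.26 for Mcm7 and -0.63 ± 0.26 for Mcm3. Gins2 was then at -1.18 ± 0.36 and Mcm6 at -0.50 ± 0.25, both over 1.5 times closer to 0 than without it. The count was 3 without SL LRC 1, 6 without SL LRC 2 and 2 without SL non-LRC 2.

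Mcm5, whose values on each array are given above, fell by 1.74 ± 0.23 in SL LRCs against SL non-LRCs (SE, n = 2 and 2 arrays, adjusted p = 0.000456), and passed in all 12 fits on 11 arrays, but not with its probe sets averaged (adjusted p = 0.174). Cdt1 fell by 1.28 ± 0.23 (adjusted p = 0.00372, 0.0663 without SL non-LRC 2 and 0.361 with its probe sets averaged). Gins2 fell by 1.78 ± 0.32 (adjusted p = 0.00411, and 0.0665 without SL LRC 1). These 3 genes act at successive steps of helicase loading and activation.

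Rrm2 was at 391 and 414 units in SL LRCs and 1208 and 1086 in SL non-LRCs, and fell by 1.51 ± 0.30 (adjusted p = 0.00744). It did not pass when SL LRC 1 or either of the SL non-LRC arrays was left out (adjusted p of 0.0571 to 0.0656). Mcm4 fell by 1.35 ± 0.28 (adjusted p = 0.00935), with 0.086 without SL LRC 1 and 0.104 without SL non-LRC 2. Mcm7 fell by 1.09 ± 0.23 (adjusted p = 0.0105), with 0.0778 without SL LRC 1, 0.0626 without SL LRC 2 and 0.157 without SL non-LRC 2. The remaining 4 calls were closer to the threshold.

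Mcm10 was at least 2.94-fold lower in SL LRCs than in SL non-LRCs (adjusted p = 0.0234), and its adjusted p was 0.173 without SL LRC 2, 0.0681 without SL non-LRC 1 and 0.191 without SL non-LRC 2. Mcm6 fell by 1.00 ± 0.24 (adjusted p = 0.0267), with 0.0527 without SL LRC 1, 0.235 without SL LRC 2 and 0.289 without SL non-LRC 2. Its 3 probe sets were not alike: of the other 2, that above background on every array differed by -0.07, and that above background on 5 of 12 arrays by 1.80, and the mean of all 3 by 0.25. Dut and Mcm3 (adjusted p = 0.0449 and 0.0428) each missed the threshold in 7 of the 12 fits on 11 arrays, which left out SL or BL arrays, at adjusted p of 0.0502 to 0.421 for Dut and 0.0502 to 0.265 for Mcm3. The Dut call was also lost with the replicate block (adjusted p = 0.0511). Pcna differed by -0.24 ± 0.18 (adjusted p = 0.587) and Uhrf1 by -0.83 ± 0.32 (adjusted p = 0.174).

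Other values moved with label in SL. Of 29 mitosis genes 10 were lower and 1 was higher, with a median of -1.50, and Mki67 was at 987 and 848 units in SL LRCs against 4079.9 and 3737 in SL non-LRCs. The 8 infundibulum and sebaceous markers summed to 23639 to 25310 units in SL LRCs against 60495 to 70723 units in SL non-LRCs, with all 8 above background on some array of each. In BL, where no member was called, the same markers summed to 10953 to 13640 units in LRCs against 29680 to 60095 units in non-LRCs, with Pparg never above background in BL LRCs. Spinous keratins ran the other way in SL, with Krt1 higher in LRCs than in non-LRCs by 1.12 ± 0.20 (adjusted p = 0.00372) and Krt10 by 0.56 ± 0.14 (adjusted p = 0.0262), beside the spinous sums given above. The 5 bulge markers summed to 2847 to 2903 units in SL LRCs against 8899 to 9816 in SL non-LRCs, and the 5 Langerhans and myeloid markers to 837 to 1057 units against 2615 to 6639 units, with Cd207, Csf1r and Ptprc never above background in SL LRCs. The 5 melanocyte markers summed to 274 to 320.3 units in SL LRCs against 580.5 to 661 in SL non-LRCs. The part of these cells, of differentiation and of the array set, in the SL result was not tested.

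Whether the label difference itself differed between layers was tested as an interaction, SL difference minus BL difference. It called 0 of 39 members and 0% of all genes, with 14 members and 1291 genes at an unadjusted p under 0.05 in limma's test. The member median was -0.75 and 33 members lay below 0. The smallest adjusted p was that of Mcm5, at -1.81 ± 0.30 (adjusted p = 0.0948), followed by Cdt1 at -1.53 ± 0.30 (adjusted p = 0.184). Mcm5 passed with the replicate block (adjusted p = 0.0439) and without BL non-LRC 3 (adjusted p = 0.0398), and under no other alternative. With the array set term it was at -2.00 (adjusted p = 0.0964). A further Mcm5 probe set above background on every array had label differences of -0.94 in SL and -0.09 in BL. Another, above background on 10 arrays, had -0.68 and 0.63.

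**Figure D5:**
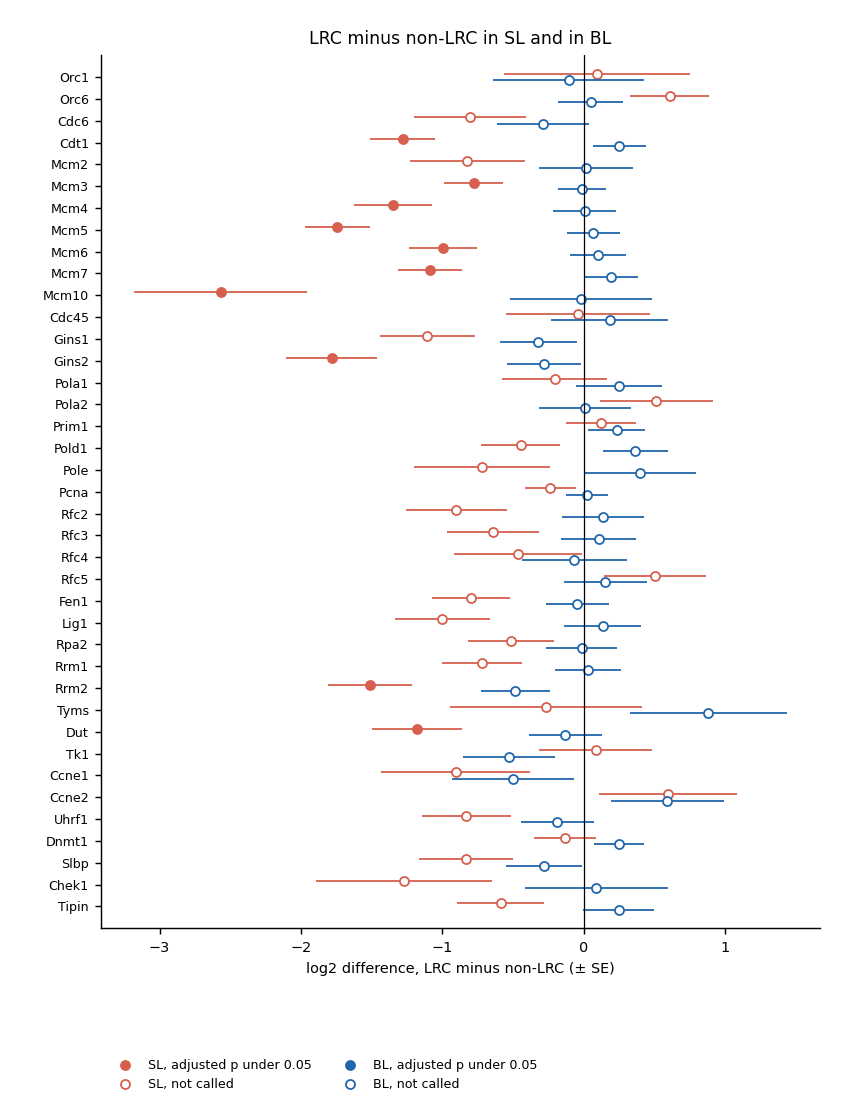
Log2 difference LRC minus non-LRC of each member (± SE) in SL and in BL. Filled points have an adjusted p under 0.05, which holds for 10 members in SL and 0 in BL. BL points scatter around 0.

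The granular fraction had the lowest levels of most members. Against the mean of both SL groups 14 of 39 members fell in GL and 0 rose (background 3.91%, member median -0.67, against -0.03 for all genes), and 15 did not overlap (background 12.9%). Against the mean of both BL groups 32 of 39 fell (background 8.41%, median -1.31) and 37 did not overlap (background 13.3%). All 10 licensing genes and all 5 polymerase and primase genes were lower than in BL, and so were 7 of 8 clamp and lagging-strand genes. Not called were Mcm10, Cdc45, Rfc4, Tyms, Tk1, Ccne1 and Ccne2. With probe sets averaged Mcm10, Rfc4 and Tyms passed (adjusted p = 0.0139, 0.0058 and 0.0135). Mcm6, Pola2 and Slbp then did not (adjusted p = 0.0825, 0.158 and 0.0536). The comparisons with SL and with BL share the GL arrays.

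Mcm3 in GL, where it read 374 and 313 units, fell by 3.23 ± 0.17 against BL (SE, n = 2 and 6 arrays, adjusted p = 2.35e-09) and by 1.74 ± 0.18 against SL (adjusted p = 1.39e-05). Cdt1, at 275 and 310.2 units, fell by 3.12 ± 0.19 against BL and 1.91 ± 0.20 against SL (adjusted p = 9.33e-09 and 1.52e-05), the difference from SL being -1.16 (adjusted p = 0.0984) with its probe sets averaged. In GL both genes lay below every SL array, as did Gins2. Gins2, at 146 and 222 units in GL, fell by 3.06 ± 0.26 against BL and 1.75 ± 0.28 against SL (adjusted p = 4.54e-07 and 0.000782). Within the high-BioB arrays the Gins2 difference from SL was -0.85 (adjusted p = 0.0762), while Mcm3 and Cdt1 still passed.

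Orc1, the licensing ATPase of the origin recognition complex, was above background on neither GL array, at 13.4 and 17.9 units, against 51.2 and 75.6 in SL LRCs, 53.0 and 64.1 in SL non-LRCs, 104, 129 and 122 in BL LRCs and 71.8, 165 and 173 in BL non-LRCs. It was at least 4.92-fold lower than in BL (adjusted p = 0.000772) and at least 2.42-fold lower than in SL (adjusted p = 0.0426), and the difference from SL missed the threshold in 10 of the 12 fits on 11 arrays, at adjusted p of 0.0503 to 0.235. A further Orc1 probe set, above background on 11 arrays, gave only -0.48 against BL and -0.28 against SL. With its probe sets averaged the Orc1 call against SL was lost, at -1.12 (adjusted p = 0.204). Within the high-BioB arrays it was lost too, at -2.01 (adjusted p = 0.0677). Pole was at 54.7 and 30.9 units in GL, against 247 to 455 units on the BL arrays, and fell by 3.01 ± 0.39 (adjusted p = 3.69e-05). Both genes were lowest in GL.

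Set against SL, Mcm5 fell by 1.16 ± 0.20 in GL (adjusted p = 0.0015), although its GL values overlapped those of SL LRCs. Mcm6 fell by 1.10 ± 0.21 (adjusted p = 0.00314, 0.053 without GL 1 and 0.699 with its probe sets averaged). Dut fell by 1.38 ± 0.27, Rpa2, a single-strand binding subunit, by 1.29 ± 0.26 and Uhrf1 by 1.31 ± 0.27 (adjusted p = 0.00414, 0.005 and 0.00595 in that order). Without GL 2 these 3 had adjusted p of 0.122, 0.0976 and 0.083, and the count of members called was 6 instead of 14. With only the GL and SL arrays in the fit it was 9. Within the high-BioB arrays, where GL meets SL LRCs alone, Mcm5 was at -0.29, Mcm6 at -0.60, Dut at -0.79 and Uhrf1 at -0.90. None of these passed there (adjusted p of 0.0693 to 0.531), while Rpa2 did.

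GL was also set against each SL group on its own. Against SL non-LRCs 15 members were lower and 0 higher (background 2.83%), with a median of -0.80. Here the GL arrays are high-BioB and the SL non-LRC arrays low-BioB. Layer and array set therefore cannot be told apart in that comparison. Against SL LRCs, which share the high-BioB set with GL, 4 were lower (Cdt1, Mcm3, Orc6 and Rpa2; background 4.03%) and Rrm2 was higher (background 5.34%), with a median of -0.39. This split was chosen after the pooled values were seen, and both comparisons use the same GL arrays. The differences from SL LRCs varied with the probe set. A further Cdt1 probe set above background on every array gave -0.14, and that of Rpa2 gave -0.83. The other Mcm3 probe sets, above background on at least 11 arrays, gave -1.47, -0.94, 0.01 and 1.33. Rrm2 was at 983 and 759.6 units in GL against 391 and 414 in SL LRCs, a difference of 1.10 ± 0.30 (adjusted p = 0.0256). Its other probe sets, above background on every array, gave 0.80 and 0.009. Mcm10 was at 62.3 and 64.6 units in GL, above the SL LRC arrays, which were below background, at adjusted p = 0.0858. The bulge markers summed to 20786 to 20960 units in GL against 2847 to 2903 units in SL LRCs, and with the T cell and Langerhans markers given above their part was not tested.

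Against BL, Dut fell by 2.85 ± 0.26, Mcm6 by 2.16 ± 0.20, Mcm5 by 2.65 ± 0.19 and Uhrf1 by 2.54 ± 0.26 in GL (highest adjusted p = 2.63e-06). Smaller decreases were those of Pcna, by 0.95 ± 0.15 (adjusted p = 0.000205), Rrm2, by 0.84 ± 0.24 (adjusted p = 0.0235, and 0.246 without GL 2 and 0.0634 without GL 1) and Dnmt1, by 0.76 ± 0.18 (adjusted p = 0.0059, and 0.199 without GL 2). With probe sets averaged the Mcm6 difference was -0.97 (adjusted p = 0.0825). Within the high-BioB arrays 31 members were lower.

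Of 46 other measured replication genes, a list that shares no gene with the 39, 12 were lower and 0 higher between SL and BL, with a median of -0.56. Those of smallest p were Dtymk, a nucleotide kinase (-1.27 ± 0.18), Dtl, an adaptor for Cdt1 destruction (-1.44 ± 0.25), Wdhd1, a fork scaffold (-1.66 ± 0.31), and Timeless, the partner of Tipin (-1.24 ± 0.25), at a highest adjusted p of 0.00619. In GL against BL 23 of 46 were lower, led by Dtl (-2.85 ± 0.32), Dtymk (-1.98 ± 0.22), Atad5, which unloads the clamp (-2.20 ± 0.28), and Gmnn, the inhibitor of Cdt1 (-1.93 ± 0.25), at a highest adjusted p of 3.42e-05. Between GL and SL 4 of 46 were lower, namely Atad5, Gmnn, Dtl and Mcm8.

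The label comparison over the same list gave 0 of 46 in BL and 4 lower and 1 higher in SL. Dtymk was at 609.7 and 346 units in SL LRCs against 956 and 1131 in SL non-LRCs (-1.18 ± 0.27, adjusted p = 0.02). Chaf1b, a chromatin assembly subunit, and Ccna2, the S phase cyclin, were lower too (adjusted p = 0.0315 and 0.0333). Dck, a salvage kinase for deoxycytidine, was the exception, at 1333 and 671 units in SL LRCs against 350.4 and 343 in SL non-LRCs (1.45 ± 0.33, adjusted p = 0.019). The 2 SL LRC arrays were far apart for Dck, and both lay above SL non-LRCs.

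Across the 12 arrays most members followed one another. Pearson's r of a member with the mean of the other members had a median of 0.884, from 0.446 for Ccne2 to 0.979 for Mcm3, and exceeded 0.9 for 17 members. Tk1 (0.459) and Tyms (0.624) were the next least alike. These values describe arrays that share their group differences, and once each group's mean was removed the median r was 0.177. Of 44 other probe sets for 29 members that were above background on at least 6 arrays, 43 had the same sign as the chosen probe set between SL and BL, 44 between GL and BL, 37 in the SL label comparison and 28 in the BL label comparison. Between GL and SL 34 of the 44 had the same sign, and between GL and SL LRCs 31 did.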

How the data were processed

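RNA from 12 sorted samples was hybridised to arrays of 45101 probe sets, from 5 ng of total RNA amplified and biotin-labelled with NuGEN kits per the labels. The authors deposited linear intensities with a floor of 1, whose 2% trimmed mean, recomputed here, is 500.0 on every array. Neither labels nor files name the software behind them. The tests had been planned for log2 values, so log2 was taken here with nothing added.

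Of the probe sets, 34945 match 1 gene in the platform annotation, 932 several and 9160 none, and 64 are controls. Only those with 1 gene were used, and the probe set of highest mean log2 stood for each of 18193 genes. The 39 members have 89 such probe sets, and 30 members have several. The chosen probe set is marked as able to bind related transcripts (x_at) for 7 members and as shared between transcripts (s_at) for 5. A background per array was the 95th percentile of 27 bacterial probe sets, and BioB, with 6 probe sets, gave the array sets. A fold with 1 side never above background is given as "at least", set against the lowest signals above background.

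Group means over all 12 arrays were fitted with limma 3.58.1 (R 4.3.3), with empirical Bayes moderation and trend, and p-values were adjusted by Benjamini-Hochberg over 18193 genes at 0.05. Errors are moderated standard errors. The fit was checked on simulated data with known changes. Members and gene lists were chosen with earlier results of these data known. Any member may be named, and of the other replication genes up to 4 of smallest p per comparison. Lists held 46 other replication genes and 29 mitosis genes with a usable probe set. Gene symbols were matched by gene identifier to RefSeq (34741 probe sets, 0 symbols changed). Deviations from group means of same-numbered BL LRC and non-LRC arrays correlated at 0.317, 0.199 and 0.178 over 10371 genes. For SL the value was 0.037. Same-numbered BL arrays also share the array set, and arrays of unlike number were not compared. Pairing by replicate number therefore cannot be told apart from the array set. Alternatives covered centring, quantile normalisation, an offset of 32, a filter on dim probe sets (above background on 2 arrays), the mean of all probe sets, the compared groups alone, the array set, the replicate block and leaving out each array. The planned protein comparison of the Mcm subunits was not analysed here. Figures used Python 3.11.15, pandas 2.3.3 and matplotlib 3.10.9.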

Additional observations from a re-analysis of the deposited data

How the results depend on the processing

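The 10 calls between SL LRCs and SL non-LRCs became 5 with the mean of all probe sets (Gins2, Mcm3, Mcm4, Mcm7 and Rrm2), which takes in probe sets below background, and 2 with the array set term (Cdt1 and Mcm5). That term was estimated from the BL arrays alone. The count ranged from 2 to 10 when 1 array was left out. Between SL and BL 23 calls ranged from 17 to 23 on 11 arrays, with 1 (Slbp) within the low-BioB arrays, where 2 arrays meet 1. Within LRCs 23 calls ranged from 12 to 22, and within non-LRCs 1 call from 0 to 1, with 0 for the mean of all probe sets. For GL against SL 14 calls became 9 with the compared groups alone, 4 within the high-BioB arrays and 5 against SL LRCs alone, which was added after the data were seen, and ranged from 6 to 14 on 11 arrays. The 4 and the 5 each held Rrm2 as higher, and 3 calls of each were among the 14. For GL against BL 32 calls ranged from 23 to 33. The interaction gave 1 call (Mcm5) with the replicate block and 0 to 1 on 11 arrays, and the block moved no other count by more than 1.5 times. Single calls that the block ended were those of Dut between SL LRCs and SL non-LRCs, Pole between SL and BL and within LRCs, Tipin within LRCs and Cdc6 for GL against SL (adjusted p of 0.0511 to 0.115), while Lig1 passed between SL LRCs and SL non-LRCs (adjusted p = 0.0431). The BL label count was 0 under every alternative. A lone array left in a group was assumed to vary like the others.

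Of the single differences, Tk1 between SL and BL changed sign to 0.28 within the high-BioB arrays and to 0.042 with the replicate block, and ranged from -0.32 to 0.11 on 11 arrays. Dnmt1 turned to 0.048 within the low-BioB arrays and Mcm6 between SL LRCs and SL non-LRCs to 0.25 with the mean of all probe sets, the cause of which was not tested. Of 63 called pairs of gene and comparison checked, 48 missed the threshold under some alternative, in 153 of 1651 settings over 78 pairs. Median centring moved the median of all genes to 0.12 between SL LRCs and SL non-LRCs, -0.19 for GL against SL and -0.16 for GL against BL. The share of called genes that were lower then was 51.1%, 64.8% and 60.9%, against 64.5%, 47.1% and 49.3% without it. Members called were then 7, 19 and 35. Signals near background limit Orc1, Mcm10 and Chek1.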
